A study of Drosophila melanogaster with 3 samples.

Results

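The Mediator and Integrator subunit genes are the 40 protein-coding genes whose symbol in the dm6 annotation begins with MED or IntS and a number, together with kto, skd, Cdk8 and CycC. They were taken from 13968 protein-coding genes on the placed chromosome arms, and 29 of them encode Mediator and 11 Integrator subunits. The peaks came from chromatin immunoprecipitation and sequencing (ChIP-seq) of the DM-domain transcription factor dmrt11E in whole Drosophila melanogaster embryos of mixed sex aged 2 to 10 h. All 3 replicates carried the same genotype, a transgene stably expressing dmrt11E with GFP at its C-terminus, and the chromatin was recovered with an antibody against GFP. There was 1 group and no untagged line was analysed here, so no test between conditions could be made. Occupancy in a few cells and weak occupancy in many cannot be told apart in whole embryos.

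Mediator is a large complex that carries signals from DNA-bound activators to RNA polymerase II. Its head and middle modules contact the polymerase, its tail meets activators, and a separable kinase module of Cdk8, CycC, Med12 (kto) and Med13 (skd) controls the complex. Integrator binds polymerase near gene starts, where its endonuclease cuts the nascent RNA and an associated PP2A phosphatase acts against elongation, and it forms the 3' ends of small nuclear RNAs. Both complexes are used in most cell types, and their genes are broadly expressed.

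The authors' lists held 30000 peaks for each replicate and for the pooled replicates, and 6706 peaks in the reproducible set chosen by irreproducible discovery rate (IDR). Read depth is not known from these lists. Peaks with a −log10 q of at least 2 numbered 9206, 15075 and 10842 in replicates 1, 2 and 3. Each peak has the authors' signal value, whose scale differs between lists, and a rank of 1 marks the highest value in a list. The IDR peaks were the 6706 highest pooled peaks, so a gene's IDR and pooled ranks are the same number. A gene is called bound below when an IDR summit lay within 500 bp of an annotated transcription start site (TSS) of the gene.

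Of the 40 genes, 20 were bound (50%, exact 95% binomial interval 33.8 to 66.2%), against 23.8% of all protein-coding genes. The Mediator genes gave 14 of 29 (48.3%) and the Integrator genes 6 of 11 (54.5%). A pooled summit lay in the window of 35 of the 40 (87.5%), against 51.6% of all protein-coding genes. The pooled list has a fixed size and includes peaks with a −log10 q below 2. When only pooled peaks with a −log10 q of at least 2 were kept, 25 members had such a summit. The share of all protein-coding genes fell as well under this limit. Among the 6706 highest peaks of each replicate, 19 members had a summit in replicate 1, 19 in replicate 2 and 19 in replicate 3, against 23.9%, 24.0% and 23.4% of all protein-coding genes. These were not the same 19, since 14 members (35.0%) had such a summit in all 3 replicates, against 17.1% of all protein-coding genes. The intervals cover counting error only, and the genes were chosen with earlier results of these data known, so no test of the list was made. The bound members ran over most of the IDR ranks, from 470 at MED27 to 6451 at IntS2. Their median IDR rank was 3586.5, against 3010 for all bound protein-coding genes, and 9 of the 20 (45.0%) lay in the upper 3353 IDR ranks, against 55.3%, a difference that was not tested.

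**Figure D1:**
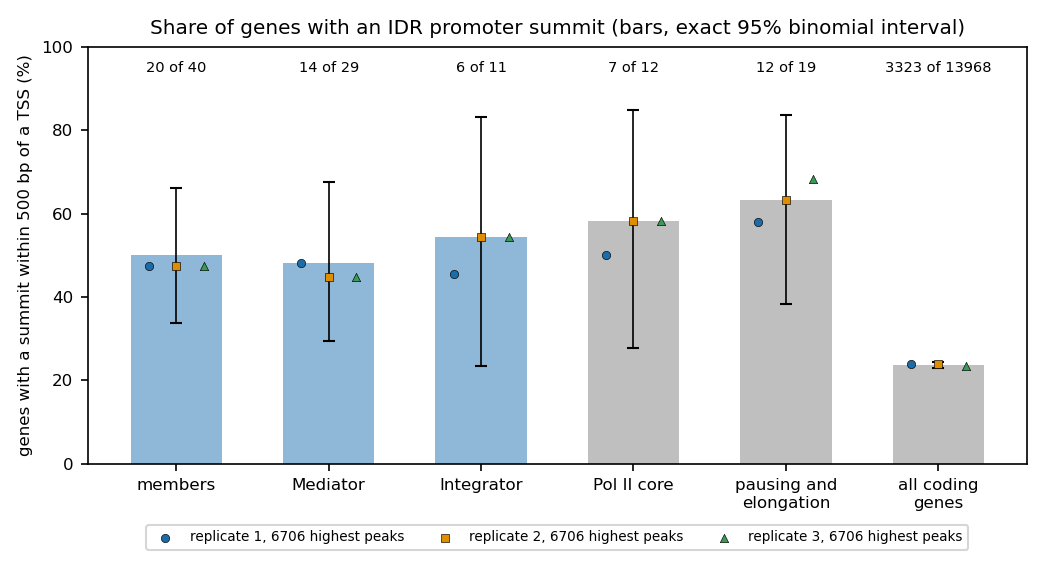
Bars give the share of genes (%) with an IDR summit within 500 bp of a TSS, with the exact 95% binomial interval, and points give the share with a summit among the 6706 highest peaks of each replicate. The 40 members stand at 50% with all 3 replicates at 47.5%, RNA polymerase II core genes at 58.3%, pausing and elongation genes at 63.2% and all protein-coding genes at 23.8%.

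The sequence around the summit is shown for 6 of the 9 bound members in the upper 3353 IDR ranks. MED7, MED31 and skd, which ranked above IntS10, are not shown. MED21 and MED25 were added because they held most of the motifs searched. Each run is the stretch of up to 101 bp around the IDR summit outside annotated exons, read on the strand of the gene, from the RefSeq copy of the dm6 assembly. Capitals mark motif matches on either strand. They are TATAAA (the TATA box), CGATA (the core of a motif found at housekeeping promoters), ACANTGT (the core of DM-domain binding sites), GAGAG (bound by GAGA factor) and CAGCTG (an E-box).
MED27, chr3R:5654957-5655057, plus strand: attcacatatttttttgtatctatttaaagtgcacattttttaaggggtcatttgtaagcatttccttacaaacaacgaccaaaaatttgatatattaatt
MED17, chr3R:18188889-18188989, plus strand: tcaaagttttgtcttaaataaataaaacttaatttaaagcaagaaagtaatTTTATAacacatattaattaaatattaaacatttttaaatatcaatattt
IntS9, chr3L:16105691-16105791, minus strand: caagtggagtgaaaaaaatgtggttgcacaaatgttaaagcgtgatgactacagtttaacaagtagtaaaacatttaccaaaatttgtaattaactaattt
IntS6, chrX:5747586-5747686, minus strand: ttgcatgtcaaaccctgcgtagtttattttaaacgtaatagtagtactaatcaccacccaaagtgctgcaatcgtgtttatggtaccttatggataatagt
MED30, chr3L:654222-654322, minus strand: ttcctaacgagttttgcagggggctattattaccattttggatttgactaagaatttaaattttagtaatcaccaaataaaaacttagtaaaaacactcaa
IntS10, chr3L:3806503-3806603, plus strand: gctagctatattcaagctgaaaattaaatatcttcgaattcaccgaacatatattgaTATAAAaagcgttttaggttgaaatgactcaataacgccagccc
MED21, chr3L:25115981-25116081, minus strand: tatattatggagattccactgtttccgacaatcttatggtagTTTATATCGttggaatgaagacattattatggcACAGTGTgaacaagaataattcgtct
MED25, chr3R:20008543-20008643, plus strand: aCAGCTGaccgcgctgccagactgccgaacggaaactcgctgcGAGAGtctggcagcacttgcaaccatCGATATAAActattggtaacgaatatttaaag

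In MED21 and MED25 the CGATA and TATAAA matches overlap, so 1 run of capitals holds both. The summit windows were rich in A and T: their GC content had a median of 28.7% over the 20 bound members and 28.7% over all bound protein-coding genes. The lowest among members was 12.9% at MED17 and the highest 59.4% at MED6.

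Among the Mediator head genes, 4 of 10 were bound. MED17 encodes the scaffold subunit of the head. Its peak at 3R, 18188693 to 18189129, ranked 887 among the pooled peaks and 1514, 1012 and 672 in replicates 1, 2 and 3. The signal values were 916 among the pooled peaks and 151, 276 and 490 in the replicates. The summit lay 133 bp upstream of the TSS of MED17 and 232 bp upstream of that of CG12321 on the other strand. MED30, a head-associated subunit found in animals, had a peak at 3L, 654124 to 654418, that ranked 1502 among the pooled peaks and 1598, 1320 and 1615 in the replicates, with signal values of 625, 146, 226 and 269 in the same order. All 3 replicates placed it close together, and the summit lay 183 bp upstream of MED30 and 91 bp upstream of Rev1, which encodes a translesion DNA polymerase.

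The other bound head genes were near the foot of the IDR set. MED8 (2R, 20326772 to 20327175) ranked 5335 among the pooled peaks and 6763, 6721 and 4738 in replicates 1, 2 and 3, with signal values of 208, 49.5, 55.7 and 103. Replicates 1 and 2 thus fell just below their own 6706 highest peaks, and the summit was 168 bp upstream of MED8 and 296 bp upstream of CG8929. MED6, the most conserved head subunit, differed in position. Its peak (3R, 9767606 to 9768009) had the summit 7 bp downstream of a TSS, inside an annotated exon, and 26 bp upstream of Naa80. MED6 has 5 annotated TSSs, and this was an internal one. The ranks were 5612 among the pooled peaks and 4294, 5752 and 7112 in the replicates, with signal values of 199, 70.0, 64.3 and 66.6.

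The middle module had 6 of 8 genes bound. MED7, a subunit of the hinge between the module's arms, had a peak at 3R, 10760973 to 10761294, with ranks of 1297 among the pooled peaks and 1858, 1321 and 1262 in replicates 1, 2 and 3. Its signal values were 693, 132, 226 and 319, and the summit lay 114 bp upstream of MED7 and 164 bp upstream of Cap-H2, a condensin II gene. MED31, a small subunit at the face turned to the polymerase, had a peak at 3R, 4641571 to 4641910, with ranks of 1592, 2569, 1573 and 1299 and signal values of 603, 103, 199 and 312. Its summit was 186 bp upstream of the TSS of MED31, which slx1 shares, and 61 bp downstream of a TSS of CG9775. Both genes were high in all 3 replicates.

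MED21, MED4 and MED1 had no other coding start within 500 bp of the summit. MED21, the partner of MED7 in the hinge, had a peak at 3L, 25115915 to 25116085, with its summit 85 bp upstream, ranks of 3745, 3486, 5081 and 3550 and signal values of 292, 82.0, 72.1 and 135. MED4 (3L, 7250639 to 7250777) had its summit 186 bp upstream, in an exon of the noncoding gene asRNA:CR43470 that starts there. It ranked 3806 among the pooled peaks and 3744, 3269 and 4520 in replicates 1, 2 and 3, with signal values of 287, 77.7, 109 and 107. Neither gene left the 6706 highest peaks of any replicate.

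MED10 and MED1 were the least even of the middle module. MED10 (3L, 16231857 to 16232260) ranked 5059 in the pooled list, 3345 in replicate 1 and 7219 in replicate 3, and replicate 2 had no summit within 500 bp. Its signal values were 219, 84.3 and 65.3 in the lists that held it, and the summit was 25 bp upstream of MED10 and 21 bp upstream of PDCD-5. MED1, whose product contacts nuclear receptors, ranked 6401 among the pooled peaks and 4249, 20675 and 5475 in the replicates, with signal values of 174, 70.6, 18.7 and 88.0 (peak at 3L, 21634308 to 21634711, summit 64 bp upstream). In replicate 2 the best summit at MED1 was another one, 148 bp downstream, and the summit nearest the pooled one ranked 25793. Replicate 2 was the weak or missing one at both genes. MED26, on chromosome 4, and MED9 were the middle genes that were not bound.

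In the tail, 3 of 7 genes were bound, and MED27 held the strongest promoter peak of all 40 genes. MED27, a subunit at the border of tail and head, had its peak at 3R, 5654802 to 5655191, with ranks of 470 among the pooled peaks and 707, 561 and 379 in replicates 1, 2 and 3 and signal values of 1307.2, 249, 401 and 663. The summit was 132 bp upstream of MED27 and 146 bp upstream of elm. MED16 (2R, 22182947 to 22183091) ranked 3504, 4782, 3852 and 2854, with signal values of 309, 64.2, 92.8 and 165. Its summit was 135 bp upstream, and 124 bp upstream of CG11170. MED25, which meets activators, was at the foot of the set, with ranks of 6366, 7862, 4935 and 8134 and signal values of 175, 44.1, 74.4 and 57.1. That peak (3R, 20008391 to 20008794) lay nearer to Hs6st, 81 bp upstream of its TSS, than to MED25, 354 bp upstream.

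MED15, an activator-binding tail gene on 2L, narrowly missed the definition. An IDR peak at 2L, 472350 to 472611, had its summit 544 bp upstream of MED15 and 269 bp upstream of CG4297, and ranked 2635. The nearest summits of the replicates were 487, 553 and 542 bp upstream, with ranks of 3440, 2401 and 2468, so only replicate 1 placed it inside the 500 bp window. A window of 1000 bp therefore counts MED15 and gives 21 bound members, against 27.1% of all protein-coding genes.

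The kinase module had 1 of 4 genes bound. The gene of Med13, skd, which links the module to the rest of Mediator, had a peak at 3L, 21027613 to 21027941, with ranks of 1781 among the pooled peaks and 1660, 2274 and 1530 in replicates 1, 2 and 3. Its signal values were 555, 142, 150 and 281, and the summit was 342 bp upstream of skd and 139 bp upstream of Pdss2. This gene also held 2 IDR summits inside its 34621 bp body, the better at rank 4018. The kinase gene Cdk8 lay just past the IDR limit at pooled rank 7009, and ranked 9574, 4575 and 9552 in the replicates. Its cyclin gene CycC had a pooled rank of 10065 and replicate ranks of 14159, 13784 and 10320. The gene of Med12, kto, had no pooled summit in the window and a single replicate summit, at rank 25113 in replicate 2. The 4 genes of this module thus ran from a strong peak in every list to almost none.

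All 3 genes of the Integrator cleavage module were bound, and each was among the 6706 highest peaks of every replicate. IntS9, the inactive partner of the endonuclease, had the highest peak of any Integrator gene at 3L, 16105593 to 16105880. It ranked 1165 among the pooled peaks and 1123, 1209 and 1176 in replicates 1, 2 and 3, a ratio of 1.08 between its lowest and highest replicate rank, with signal values of 757, 186, 242 and 335. The summit was 114 bp upstream of IntS9 among the pooled peaks and 110, 119 and 116 bp upstream in the replicates, and 111 bp upstream of CG43295. IntS11, the endonuclease gene, had a peak at 3R, 29744985 to 29745388, with ranks of 3826, 3527, 3724 and 4237 and signal values of 286, 81.4, 95.9 and 114. Its summit was 150 bp upstream of IntS11 and 95 bp upstream of Wdr24. IntS4, the scaffold that holds the pair, ranked 3669, 3611, 2819 and 4733, with signal values of 297, 79.8, 124 and 103. Its peak (X, 8558693 to 8559096) had the summit 114 bp upstream, in an exon of the neighbouring gene CG12112.

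Outside the cleavage module, 3 of 8 Integrator genes were bound. IntS6, which joins PP2A to the complex, had a peak at X, 5747472 to 5747802, with ranks of 1231 among the pooled peaks and 1382, 1540 and 1101 in replicates 1, 2 and 3 and signal values of 721, 161, 201 and 353. The summit was 382 bp upstream of IntS6 and 111 bp upstream of the helicase gene Rtel1. A further IDR peak lay at the other TSS of IntS6, with its summit 331 bp downstream, and ranked 3367 among the pooled peaks and 3339, 3224 and 3421 in the replicates. IntS6 was the only 1 of the 20 with 2 IDR summits within 500 bp of its starts.

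IntS10, of the auxiliary module, ranked 2315 among the pooled peaks and 3286, 2597 and 2069 in replicates 1, 2 and 3, with signal values of 447, 85.4, 133 and 220. Its peak (3L, 3806472 to 3806667) had the summit 157 bp upstream of IntS10 and 94 bp upstream of CG32264 and ntc. IntS2, of the backbone, had the last rank of any bound member, 6451. Its peak (X, 17656992 to 17657395) ranked 5464 and 5182 in replicates 2 and 3, with signal values of 172 among the pooled peaks and 67.4 and 93.2 in these replicates. In replicate 1 the best summit in the window was another one, 408 bp downstream, at rank 27461 and signal value 18.7. The pooled summit was 376 bp upstream of IntS2 and 178 bp upstream of the spectrin gene beta-Spec.

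**Figure D2:**
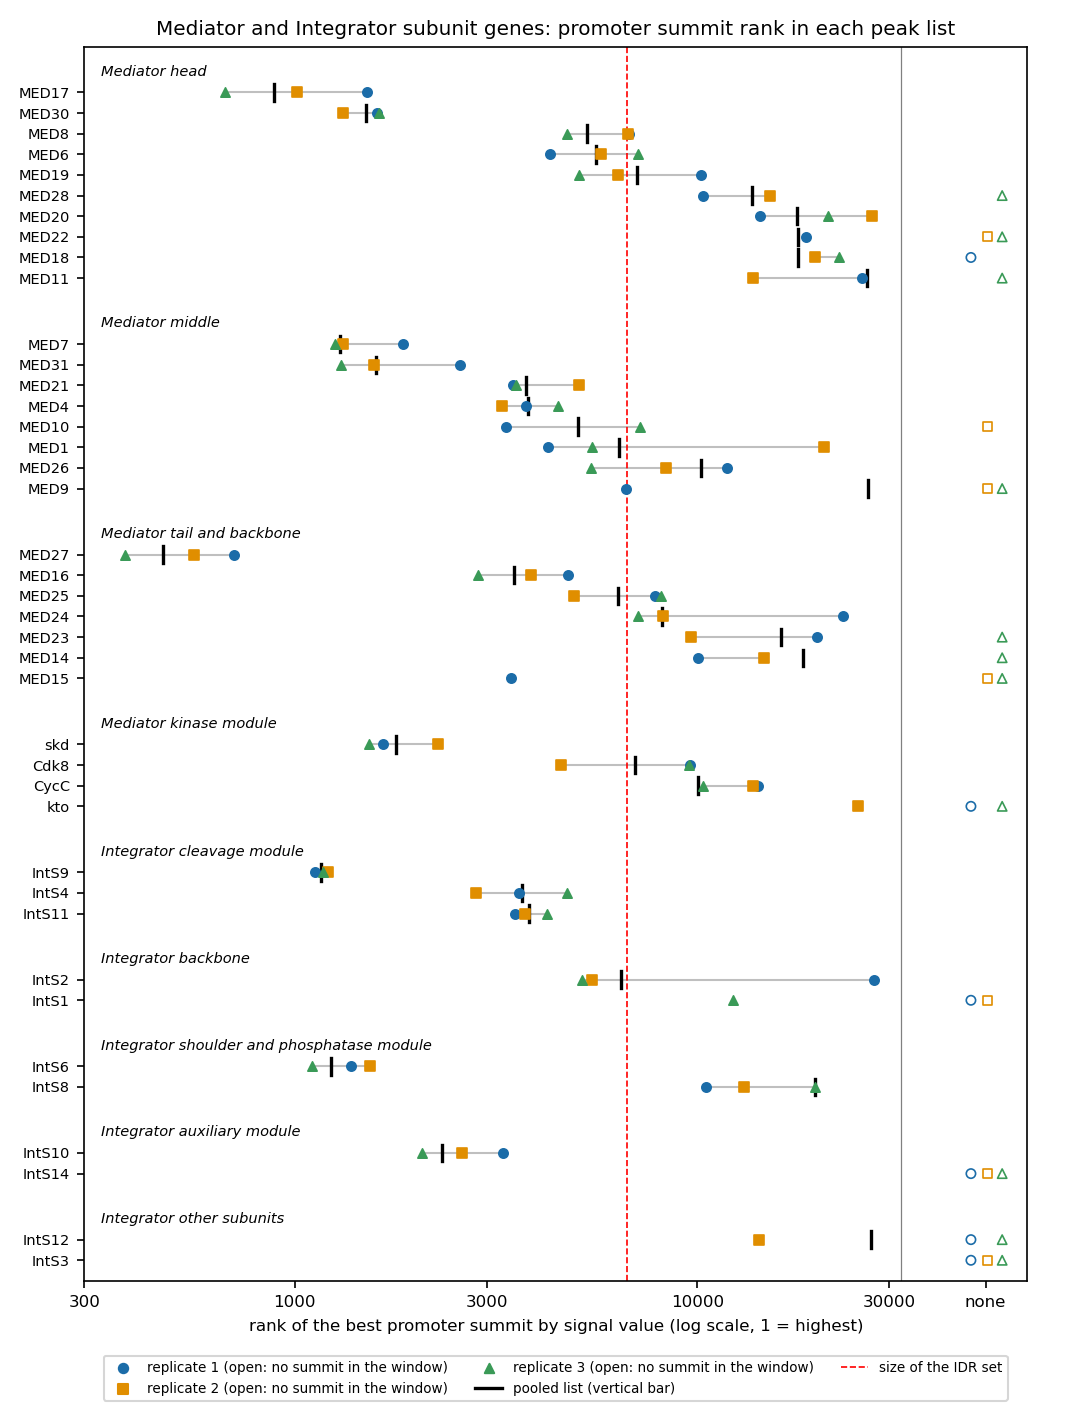
Each row is a gene, with the rank of its best promoter summit on a log axis (1 is the highest signal value) in replicates 1 to 3 (points) and the pooled list (bar); open symbols at the right mark a list with no summit in the window. MED27, MED17, IntS9, IntS6, MED7, MED30, MED31, skd and IntS10 are among the 14 members that lie left of the dashed line at 6706 in every list. MED1 and IntS2 each have 1 replicate far to the right, at ranks 20675 and 27461.

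Of the 20 members that were not bound, 15 had a weaker pooled summit in the window and 5 had none. Of all 13968 protein-coding genes, 7211 had a pooled summit in the window, 3323 of them bound, and 10645 were not bound. The best of the unbound members were Cdk8 and the head gene MED19, which ranked 7099 among the pooled peaks and 10233, 6344 and 5080 in replicates 1, 2 and 3. The replicate 2 rank belongs to a summit 92 bp upstream, while the others were 331 to 370 bp upstream, where replicate 2 had a summit at rank 17690. The tail gene MED24 ranked 8174 among the pooled peaks and 23033, 8201 and 7124 in the replicates. CycC followed, and then MED26, whose mammalian counterpart recruits elongation factors, with a pooled rank of 10221 and replicate ranks of 11820, 8376 and 5434. At MED26, which has 2 annotated TSSs, the pooled summit was 486 bp downstream of the TSS at the 5' end of the gene. Replicates 1 and 2 had their best summit 76 and 118 bp upstream of the other TSS, inside the gene. These ranks thus belong to different sites.

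The other 10 with a pooled summit were MED28, MED20, MED22, MED18 and MED11 of the head, MED9 of the middle, MED23 and the backbone gene MED14, and IntS8 and IntS12. Their pooled ranks ran over 13699 to 27044 and their pooled signal values over 41.1 to 77.4. The −log10 q of these pooled peaks ran from 0.3 at IntS12 to 1.36 at MED28, below the limit of 2. MED20 and IntS8 were the 2 of these 10 with a summit in all 3 replicates. MED9 was the highest of them in a replicate, at rank 6654 in replicate 1, with no summit in replicates 2 and 3. An IDR summit at rank 3758 also lay 1016 bp from the TSS of MED20, near the 3' end of this 1037 bp gene. Replicates 1 and 3 had summits 975 and 810 bp downstream of that TSS, each within 500 bp upstream of a start of the neighbouring gene poe. The IDR peak could therefore be counted for poe in place of MED20.

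The 5 without a pooled summit were MED15, kto, IntS1, IntS3 and IntS14. IntS1, the largest subunit of the backbone, had a summit in replicate 3 alone, at rank 12285. IntS3, which in human cells also serves a single-stranded DNA binding complex, and IntS14 had no summit in the window in any list, which held for 36.3% of all protein-coding genes. The nearest IDR summit was 54685 bp from the TSS of IntS3, and 5603 bp from that of IntS14. In all, 5 of the 20 members that were not bound (25%) reached the 6706 highest peaks of at least 1 replicate, against 9.49% of all protein-coding genes that were not bound: MED19, MED26, MED9, MED15 and Cdk8. Of the 20 bound members, 6 (30%) were not in that range in all 3 replicates, against 28.3% of all bound protein-coding genes: MED8, MED6, MED10, MED1, MED25 and IntS2.

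Replicate ranks of the bound members differed by less than 2-fold at most genes. A summit was present in every replicate for 19 of the 20, against 3225 of all 3323 bound protein-coding genes. The ratio of the lowest to the highest rank was under 2 at 16 of the 19 members (84.2%), against 66.7% of the 3225 genes. The median ratio was 1.59, against 1.68. The widest were IntS2, at 5.30, and MED1, at 4.87, where 1 replicate's best summit was at another site, and MED17, at 2.25. The median rank of the bound members with a summit was 3415.5, 2819 and 3202 in replicates 1, 2 and 3, over 20, 19 and 20 genes.

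The summits at these genes lay upstream of the start. Of the 20 best IDR summits, 19 (95%) were upstream of the nearest TSS of the member, against 89.9% over all bound protein-coding genes. The median position was 142.5 bp upstream (quartiles 186 and 114 bp), against 144 bp upstream (quartiles 227 and 84 bp). Between 60 and 200 bp upstream lay 14 of the 20 (70.0%), against 49.9%, limits that were chosen after the values were seen.

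**Figure D3:**
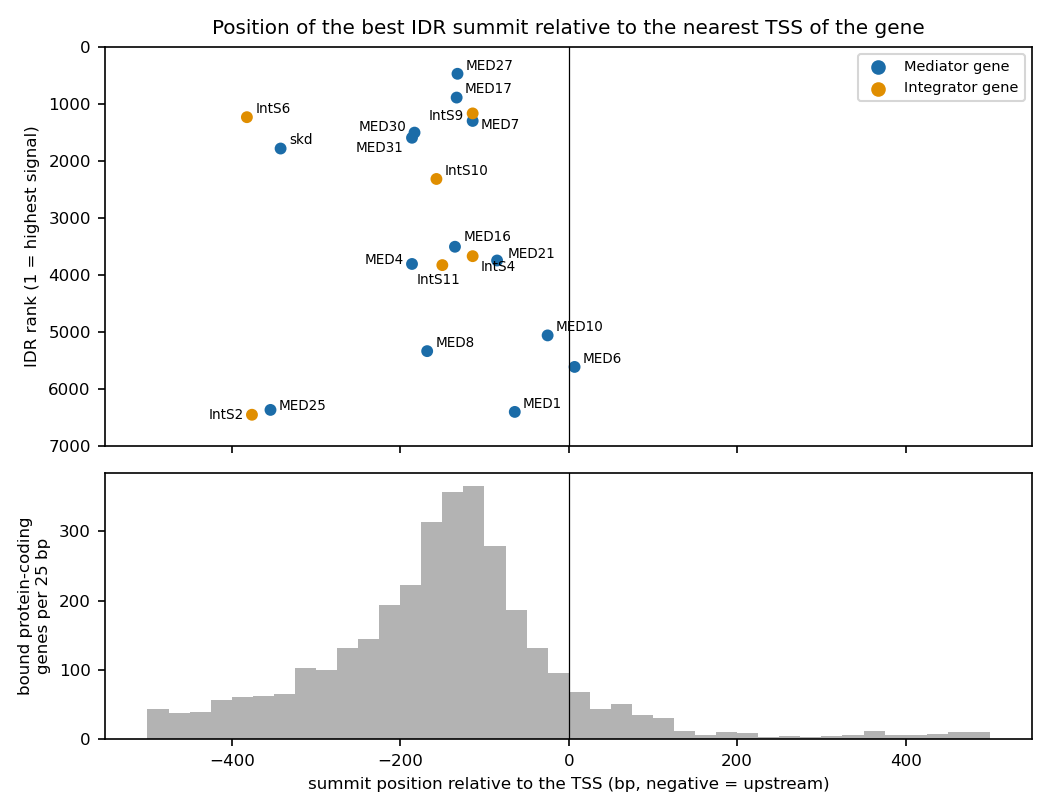
Top, the position of the best IDR summit relative to the nearest TSS of the gene (bp, negative is upstream) against IDR rank for the 20 bound members. Bottom, the same positions for all 3323 bound protein-coding genes in bins of 25 bp, of which 89.9% lie upstream.

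Most of these peaks lay near a further gene read in the opposite direction. At 16 of the 20 bound members (80.0%) the summit was also within 500 bp of a coding start on the opposite strand, against 58.4% of all bound protein-coding genes. The partners were a mixed set that included Rev1, Cap-H2, Rtel1, Wdr24 and beta-Spec, and the 20 members rested on 20 different peaks, none of them shared by 2 members. The member's own TSS was the coding start nearest to the summit at 9 of the 20 (45.0%), against 70.3%. Some of these were near ties. The member's and the partner's start were 114 and 111 bp away at IntS9 and 25 and 21 bp away at MED10. They were 135 and 124 bp away at MED16, and 132 and 146 bp away at MED27, where the member was nearer. At each of these genes the nearer start differed between replicates. A peak could therefore be counted for its partner in place of the member. When each peak was given only to its nearest coding start, 10 of the 40 members were bound (25%), against 17.2% of all protein-coding genes.

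The arrangement of the genes can be read from the annotation alone. Of the 40 members, 28 (70.0%) had an opposite-strand coding start within 1000 bp upstream of their 5' end, against 35.2% of all protein-coding genes. The share bound was higher among these head-to-head genes in both sets, with no test made: 16 of 28 members (57.1%) against 4 of 12 other members (33.3%), and 43.3% of head-to-head protein-coding genes against 13.2% of the rest. Within the head-to-head genes the members' 57.1% stood beside 43.3% over all protein-coding genes, and the 50% of all members stood beside 23.8%. This split was chosen after the values were seen, and its part in the members' share was not tested.

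Among the head-to-head members, the median gap to the partner's start was wider at the bound ones. It was 278 bp over the 16 bound members and 101.5 bp over the 12 that were not bound. With a gap of 201 to 600 bp, 13 of 16 members were bound (81.2%), and the exceptions were MED19, IntS12 and IntS14. With a gap of 200 bp or less, 2 of 10 were bound (20%), MED31 and MED10, while those not bound were MED22, MED9, MED28, MED18, MED23, MED20, IntS1 and CycC. Over all protein-coding genes the shares were 54.5% at 201 to 600 bp and 34.8% at 200 bp or less. At 601 to 1000 bp there were 2 members, of which MED1 was bound and MED15 was not, beside 22.7% of all protein-coding genes. A pooled summit of any rank was present at 15 of 16 members at 201 to 600 bp and 9 of 10 at 200 bp or less. Over all protein-coding genes these shares were 82.8% and 75.5%. Over all head-to-head protein-coding genes the median gap was 295 bp for the bound and 307 bp for the others. These medians were closer than those of the members and in the reverse order, with the bound genes slightly narrower. In the replicates, the number of members of the 201 to 600 bp class with a summit among the 6706 highest peaks was 10, 13 and 13, and of the narrower class 3, 1 and 1. Over all protein-coding genes, too, the share with such a summit was higher in the 201 to 600 bp class than in the narrower class in each replicate. The contrast in the replicates was therefore not particular to the members. These limits on the gap were chosen after the values were seen.

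**Figure D4:**
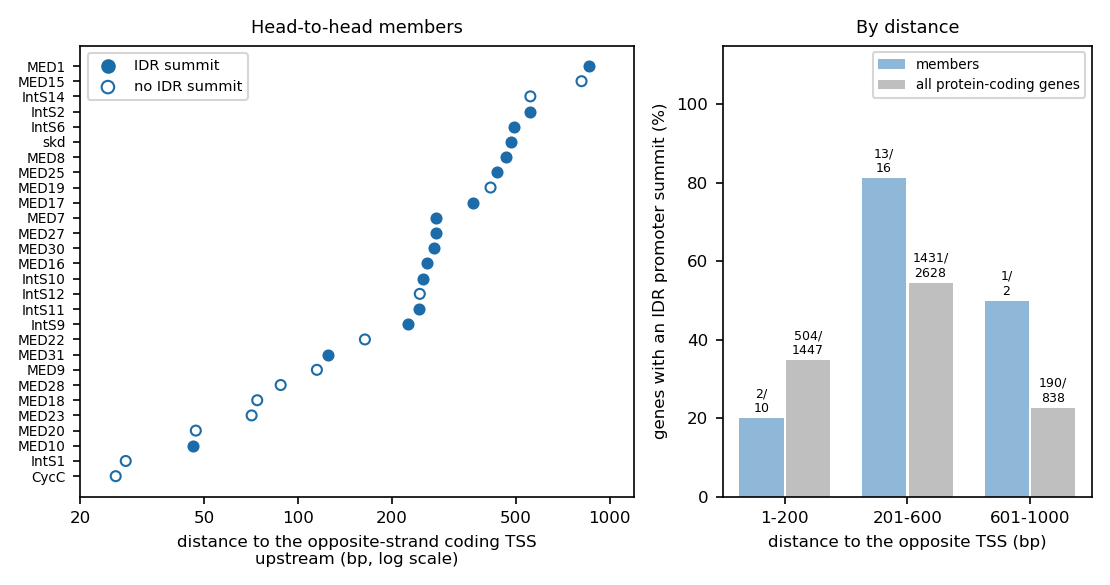
Left, the distance from the 5' end of each of the 28 head-to-head members to the opposite-strand coding start upstream (bp, log axis), filled where the member was bound. Right, the share of genes bound (%) by that distance for members and for all protein-coding genes, with counts: 13 of 16 members were bound at 201 to 600 bp and 2 of 10 at 1 to 200 bp.

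By chromosome arm, bound members were 7 of 10 on 3R, 8 of 14 on 3L, 3 of 5 on X, 2 of 7 on 2R, 0 of 3 on 2L and 0 of 1 on chromosome 4. Over all protein-coding genes the share bound was 25.7% on 3R, 23.9% on 3L, 22.6% on X, 21.7% on 2R, 24.3% on 2L and 36.2% on chromosome 4. The 10 members on 2L and 2R thus included 2 of the 20 bound genes, MED8 and MED16. On 2L the members were MED15, with the IDR peak just outside the window, MED20 and IntS14.

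Of the 8 motifs searched on both strands within 50 bp of the best summit, none occurred at more than 5 of the 20 bound members. ACANTGT, the core of the sites bound by DM-domain proteins, was present at MED6, MED10 and MED21 (15.0%), against 3.79% of all bound protein-coding genes and 3.36% of all IDR peaks. Of these, MED21 is printed above, and its match lies within a window whose summit ranked 3745. The 4 strongest members, MED27, MED17, IntS9 and IntS6, had no match. TATAAA was present at MED25, MED17, IntS10, MED21 and MED1 (25%), against 28.3% of all bound protein-coding genes. CGATA was present at MED25 and MED21 (10.0%), against 21.1%, and the longer TATCGATA, which contains it, at none, against 3.04%.

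GGTCACAC, the inner part of a core promoter element of housekeeping genes, was present at MED10 (5%), against 1.35%. GAGAG was present at MED25 (5%), against 5.48%, and CAGCTG also at MED25 (5%), against 2.83%. CAGGTAG, the site of the early embryonic activator Zelda, was present at none, against 0.391%. Counts this small carry no comparison, and a missing match says only that these letters were not in the window.

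Genes of the polymerase and of its pausing machinery, on which both complexes act, had these values. Of the 12 RNA polymerase II core subunit genes, 7 were bound (58.3%), led by the second-largest subunit gene Polr2B at rank 515, Polr2H at 756 and Polr2J at 913. Their replicate ranks were 644, 534 and 484 at Polr2B, 1224, 981 and 544 at Polr2H and 1344, 898 and 779 at Polr2J. Of 19 genes for pausing and elongation factors, 12 were bound (63.2%), with TH1, which encodes the NELF-D subunit of the pausing complex, at rank 352 and its partner gene Nelf-E at 580. The next, Nelf-A, ranked 3865. TH1 had ranks of 440, 501 and 281 in replicates 1, 2 and 3, and Nelf-E of 247, 594 and 986. Below these leading genes the ranks were less even: among bound genes, Polr2C ranked 25167 and Spt5 14707 in replicate 1, and spt4 ranked 12218 in replicate 2. A summit among the 6706 highest peaks of all 3 replicates was present at 5 of the 12 polymerase genes (41.7%) and 7 of the 19 pausing and elongation genes (36.8%). For the 40 members this share was 35.0%, and for all protein-coding genes 17.1%. The shares bound were 50% and 23.8%. Both genes of the PP2A core that joins Integrator were bound, the catalytic subunit gene mts at rank 2175 and the scaffold gene Pp2A-29B at rank 3567.

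A further 4 subunit genes carry older symbols and fall outside the 40: ix (Med29), defl (IntS7), omd (IntS5) and asun (IntS13), paired with these names by the RefSeq gene table. Of these, omd was bound at rank 2412, defl at 3113 and asun at 5391, and ix had a pooled summit at rank 13422. Intersex, the product of ix, acts with the DM-domain protein Doublesex in female differentiation. The replicate ranks of omd, at 2413, 21154 and 2850, were uneven, and its summit was 473 bp downstream of a TSS, while defl had ranks of 6520, 2912 and 2757. At asun the replicate ranks were 9695, 3234 and 7980, outside the 6706 highest peaks in replicates 1 and 3. With these 4 genes added, 23 of 44 subunit genes were bound (52.3%). IntS15 was not found under that symbol and is not among the 44.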

How the data were processed

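The authors called peaks on dm6 for each of 3 replicates and for the replicates pooled, against 1 control, and made the IDR set from these lists, per the deposited file descriptions. Aligner, caller and IDR threshold: not given in the sources used here. Per the deposited columns, each peak carries the authors' signal value, a score used only for ranks within a list, and a −log10 q used only as a limit in an alternative. Lists hold a fixed number of peaks, so precision comes from replicate spread, and intervals (exact, 95%) cover counting error.

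Summits were assigned to every transcript start of protein-coding genes in Ensembl release 115 within 500 bp, and the summit of highest signal was kept per gene and list. Each peak end lay inside its arm in the RefSeq sequence. The assignment was tested on simulated data. The members, gene lists and motifs were chosen with earlier results of these data known. Every member is named, bound members in full, and of unbound ones the 5 with the best pooled rank. The split by gene arrangement, its gap classes and the 4 older symbols were added after the values were seen. Alternatives changed the window, TSS set, peak assignment, list size and replicates. Python 3.11.15, numpy 2.4.6, pandas 2.3.3, scipy 1.17.1 and matplotlib 3.10.9 were used. Per the labels, the 3 are biological replicates from separate biosamples of the same transgenic line.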

Additional observations from a re-analysis of the deposited data

How the results depend on the processing

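Shares of all protein-coding genes are in brackets. The count of 20 bound members (23.8%) lay within 1.5 times under windows of 200 bp, with 16 (16.5%), and 1000 bp, with 21 (27.1%), gene 5' ends only, with 19 (21.6%), and any overlap of the peak, with 21 (25.1%). Giving each peak only to its nearest coding start moved the bound count to 10 (17.2%), the pooled count of 35 to 23 (42.8%) and the replicate mean of 19 to 11 (17.4%). The upper 3353 IDR peaks held 9 bound members (13.2%), at a median rank of 1297. Requiring a top summit in all 3 replicates gave 14 members (17.1%) at a median of 1686.5. Requiring it in only 2 gave 15 without replicate 1 (19.5%), 2 (18.1%) or 3 (18.6%), each at a median of 1781, against 3586.5. Fewer, stronger peaks are kept by construction in these settings. Halving the list size gave a replicate mean of 10.3 (12.9%). For the motifs, shares are of all bound protein-coding genes. At 25 bp, ACANTGT was at 1 member (1.47%), GGTCACAC at 0 (0.662%) and CAGCTG at 0 (1.47%). At 100 bp, ACANTGT was still at 3 members (8.19%). At that width TATCGATA was at 1 (8.16%), CGATA at 5 (39.6%), GAGAG at 3 (14.6%) and TATAAA at 11 (44.3%). No paired analysis was possible because there is 1 group.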
